A study of Homo sapiens with 12 samples.

Results

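The 9 genes examined encode the core of type I interferon signaling. They are the receptor chains IFNAR1 and IFNAR2, the receptor-associated kinase JAK1, the transcription factors STAT2 and IRF9, and the interferon regulatory factors IRF1, IRF2, IRF3 and IRF7. They were chosen by name and make up 9 of the 20046 protein-coding genes of GENCODE v44. An accessible region is a run of adjacent 100-bp bins in the table of a cell line, and it was assigned to a gene when any of its bins lay in the gene body or within 20 kb on either side. This gave 63 of 79177 regions (706 of 709366 bins) in DU-145 and 62 of 46298 regions (893 of 472994 bins) in BT-549. The tables shared 46 of 32671 runs of bins (531 of 321392 bins) at these genes. The assignment is by position, so that the windows also hold start sites of neighbors such as PAN2, PRMT1, EMC9 and IL10RB.

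The lines are DU-145, from a castration-resistant prostate cancer (CRPC), and BT-549, from a triple-negative breast cancer (TNBC), both human. Each carried a tetracycline-inducible short hairpin RNA against MUC1 (tet-MUC1shRNA), which also the vehicle cells held. Cells of each line were treated for 7 days with vehicle (0.1% DMSO) or doxycycline (DOX), at a DOX dose not given in the sources used here, and accessibility was measured by ATAC-seq on 50000 cells per library, with 3 libraries in each of the 4 groups and 12 in all. This assay cuts open chromatin with the Tn5 transposase, so that coverage by the fragments measures accessibility. MUC1 silencing and DOX itself cannot be told apart in 1 contrast without libraries of a control hairpin, and the study's methods describe the 3 replicates of a group as biologically independent, which the labels do not detail.

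Type I interferons bind a receptor made of IFNAR1 and IFNAR2, whose associated kinases phosphorylate STAT proteins. STAT2 then joins IRF9 in a complex that binds interferon-stimulated response elements (ISRE) at antiviral genes, whereas STAT dimers bind gamma-activated sites (GAS). IRF3 and IRF7 switch on interferon genes after nucleic acids are sensed. IRF1 activates many interferon-responsive genes and is itself induced through a GAS element in its promoter, and IRF2 binds similar elements and can oppose IRF1. These genes act in most cell types, and epithelial tumor cells can respond to interferon through them.

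Summed over bins, a library came to between 12370094 and 25232000 in DU-145 and to between 9142900 and 13606129 in BT-549 vehicle cells, but only to between 2502510 and 3267024 in BT-549 DOX cells. The BT-549 DOX libraries also had the fewest peaks, 30450 to 39837, against 65204 to 93929 in BT-549 vehicle cells. At its start site, MUC1 had a log2 fold change with DOX of -0.17 in DU-145 (adjusted p = 0.0534) and 0.02 in BT-549 (adjusted p = 0.907), and since the hairpin acts on RNA, this is no measure of knockdown. Start-site regions were found for 4 of 4 epithelial markers (EPCAM, CDH1, KRT8 and KRT18) in DU-145 and for 0 of 4 in BT-549, for 3 of 4 mesenchymal markers in each line and for 0 of 4 leukocyte markers in either. The table of DU-145 held no start-site region of KLK3, and that of BT-549 none of ESR1. In the tests below, changes are log2 fold changes by edgeR's quasi-likelihood test after scaling to the library sum, adjusted over all features of the table and called at an adjusted p under 0.05. Over all regions, the median change with DOX was 0.24 in DU-145 and -0.10 in BT-549. At canonical start sites of protein-coding genes it was -0.18 in DU-145 and 0.10 in BT-549, and elsewhere 0.39 and -0.24, so that start sites and other regions shifted in opposite directions in each line. With TMM factors, the medians over all regions were 0.05 and 0.00, and the share of called regions that were higher with DOX was 54.1% rather than 68.0% in DU-145 and 51.7% rather than 40.4% in the other line.

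Of the sequences at these loci, those shown are the elements on which the comparisons turn. The 2 promoters that hold a GAS match (TTCNNNGAA, in capitals) are those of IRF1, from 250 to 11 bases before the start (chr5:132490784-132491023, minus strand), and of IRF9, of which the 30 bases around the match are given (chr14:24161192-24161221, plus strand). The matches begin 124 and 63 bases before the RefSeq start, respectively, and both promoters come from RefSeq on GRCh38.p14.
IRF1 promoter: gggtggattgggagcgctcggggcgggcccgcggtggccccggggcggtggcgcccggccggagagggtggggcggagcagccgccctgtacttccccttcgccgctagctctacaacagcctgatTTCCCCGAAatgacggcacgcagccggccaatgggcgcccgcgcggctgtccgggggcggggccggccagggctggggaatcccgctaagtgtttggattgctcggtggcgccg
IRF9 promoter: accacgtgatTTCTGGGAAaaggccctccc

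Next are 2 elements at IRF1 that were open in BT-549 vehicle cells, each 300 bp of the GRCh38 plus strand. The first (chr5:132481201-132481500) lies just past the 3-prime end of the canonical IRF1 transcript and holds none of the motifs searched. The second (chr5:132464201-132464500) lies farther downstream in an exon of the lncRNA IRF1-AS1 and holds 2 ISRE core matches on opposite strands, given in capitals (GAAANNGAA or its reverse complement).
IRF1 3-prime element: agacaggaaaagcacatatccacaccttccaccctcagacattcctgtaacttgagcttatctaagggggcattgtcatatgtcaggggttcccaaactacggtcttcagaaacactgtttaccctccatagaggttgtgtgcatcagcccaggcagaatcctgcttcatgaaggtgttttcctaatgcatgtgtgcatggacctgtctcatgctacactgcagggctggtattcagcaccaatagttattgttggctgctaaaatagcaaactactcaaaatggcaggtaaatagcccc
IRF1 downstream element: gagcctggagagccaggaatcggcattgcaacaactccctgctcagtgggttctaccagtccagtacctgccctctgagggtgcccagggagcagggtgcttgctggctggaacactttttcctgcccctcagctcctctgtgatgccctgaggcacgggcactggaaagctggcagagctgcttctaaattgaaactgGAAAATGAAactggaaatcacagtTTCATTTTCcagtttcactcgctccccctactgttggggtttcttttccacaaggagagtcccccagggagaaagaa

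The remaining 3 elements, also 300 bp each of the GRCh38 plus strand, belong to the regions at the receptor and kinase genes whose values are described most fully. They lie upstream of the canonical IFNAR2 start (chr21:33204001-33204300), downstream of IFNAR1 toward IFNGR2 (chr21:33373501-33373800) and inside JAK1 (chr1:64917501-64917800). Capitals mark the 1 GAS match among them, at IFNAR1.
IFNAR2 upstream element: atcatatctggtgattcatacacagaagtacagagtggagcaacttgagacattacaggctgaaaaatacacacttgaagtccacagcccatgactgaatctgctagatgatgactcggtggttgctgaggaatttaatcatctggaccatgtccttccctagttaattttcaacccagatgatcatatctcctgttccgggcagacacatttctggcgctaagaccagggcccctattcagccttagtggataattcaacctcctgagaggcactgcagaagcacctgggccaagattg
IFNAR1 downstream element: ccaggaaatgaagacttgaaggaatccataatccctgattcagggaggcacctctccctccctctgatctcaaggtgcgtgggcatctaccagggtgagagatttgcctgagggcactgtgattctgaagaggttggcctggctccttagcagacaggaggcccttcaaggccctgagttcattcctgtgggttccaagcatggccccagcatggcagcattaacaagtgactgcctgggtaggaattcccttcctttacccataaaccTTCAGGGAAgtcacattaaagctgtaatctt
JAK1 intronic element: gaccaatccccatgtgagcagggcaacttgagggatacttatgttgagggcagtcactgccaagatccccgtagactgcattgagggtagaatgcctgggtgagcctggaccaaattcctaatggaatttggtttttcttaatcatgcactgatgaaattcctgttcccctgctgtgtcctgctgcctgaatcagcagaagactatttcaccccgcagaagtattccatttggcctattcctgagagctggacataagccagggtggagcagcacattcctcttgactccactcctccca

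With DOX in DU-145 cells, accessibility fell at the start sites of 6 of the 9 genes, namely IRF9, IRF2, IRF1, STAT2, JAK1 and IFNAR1, and 3 were not called. Among all 11785 canonical start-site regions of DU-145, 41.1% were called lower and 7.25% higher with DOX. The median change of the 9 start sites was -0.43, against -0.18 over all of them. Levels are given as scaled coverage, the mean bin value of a region per 1000000 of the library's summed bin values, so that levels of regions of different length can be compared. IRF9, the DNA-binding partner of STAT2, had 1.96, 1.77 and 1.80 in the vehicle libraries and 0.801, 0.941 and 0.999 in the DOX libraries. The DOX libraries all lay well below the vehicle libraries at IRF9. This is a change of -1.0 on the log2 scale (SE 0.134, adjusted p = 9.14e-08), and 0.3% of the canonical start-site regions fell as far or farther. Under the 16 alternatives it stayed between -1.25 and -0.92 and was called each time.

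**Figure D1:**
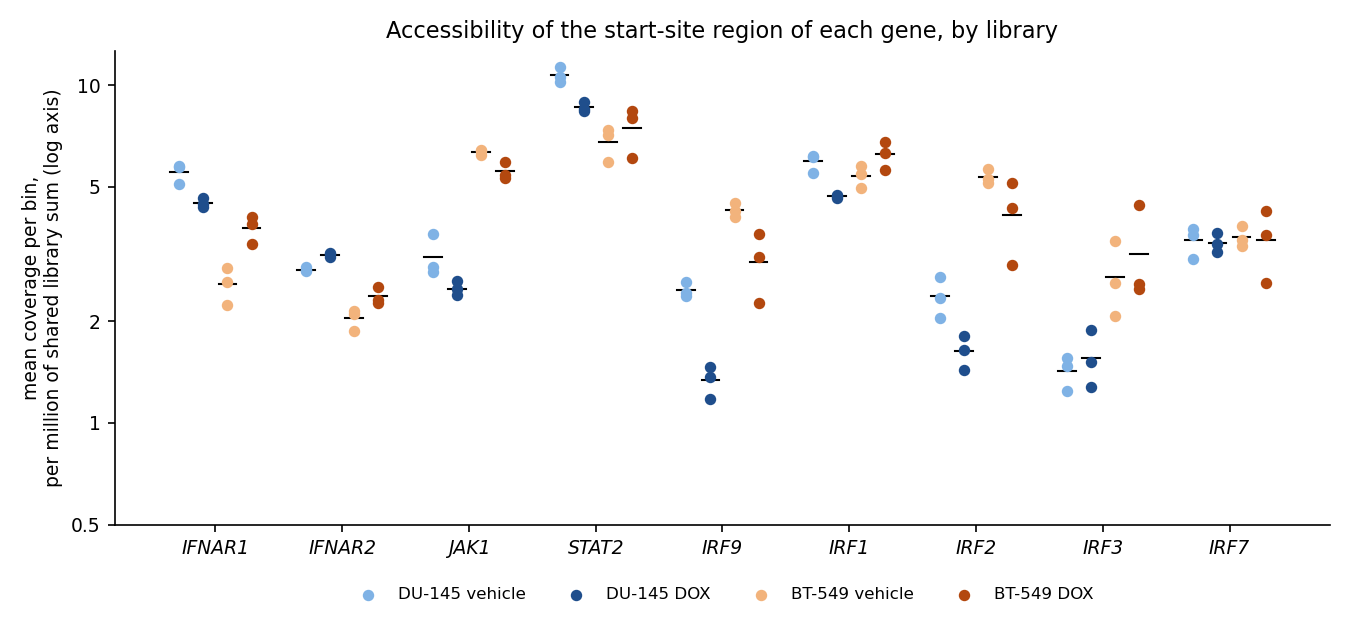
Scaled coverage of the start-site region of each gene in the 12 libraries, on a log axis. Each point is a library, each bar the mean of 3, and the coverage is per 1000000 of the bins that both tables hold. In DU-145, the DOX points of IRF9 (1.18 to 1.46) lie below the vehicle points (2.38 to 2.62), whereas at IFNAR1 in BT-549 the DOX points (3.38 to 4.07) lie above the vehicle points (2.23 to 2.87).

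IRF2, which can oppose IRF1, had 1.76, 1.51 and 2.01 without DOX and 1.23, 0.981 and 1.12 with DOX at its start site, a change of -0.66 (SE 0.134, adjusted p = 7.10e-05). The start-site region of IRF1 had 4.65, 4.56 and 4.08 without DOX and 3.14, 3.23 and 3.25 with DOX, a change of -0.46 (SE 0.0763, adjusted p = 3.38e-06). STAT2, the most accessible of the 9 start sites in DU-145, had 7.68, 8.39 and 7.83 without DOX and 5.67, 6.15 and 5.84 with DOX, a change of -0.44 (SE 0.0775, adjusted p = 1.14e-05). In none of these did a DOX library reach the lowest vehicle library. The kinase gene JAK1 had 2.72, 2.08 and 2.15 without DOX and 1.62, 1.81 and 1.71 with DOX (-0.43, SE 0.101, adjusted p = 0.000455). The receptor gene IFNAR1 had 3.37, 3.77 and 3.76 without DOX and 2.60, 2.83 and 2.71 with DOX (-0.42, SE 0.0865, adjusted p = 8.85e-05). Both pairs of groups were again apart. All 6 calls held under every alternative tried.

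The start sites of the other receptor chain and of both factors that switch on interferon genes were not called in DU-145. IFNAR2 had 1.81, 1.81 and 1.85 without DOX and 1.83, 1.86 and 1.84 with DOX at its canonical start (0.02, SE 0.0956, adjusted p = 0.895). With RLE factors the change was -0.23 and called lower. IRF3, which shares its start-site region with BCL2L12, had 1.10, 0.923 and 1.16 without DOX and 1.03, 1.30 and 0.878 with DOX (0.03, SE 0.161, adjusted p = 0.894). IRF7 had 2.63, 2.47 and 2.12 without DOX and 2.12, 2.06 and 2.32 with DOX (-0.16, SE 0.105, adjusted p = 0.214), and it was called lower at -0.35 with TMM factors. The vehicle and DOX values of these 3 genes overlapped.

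Over all 63 regions at the 9 genes in DU-145, 22 were called higher and 19 lower with DOX, and 22 were not called. Of all regions of DU-145, 37.1% were called higher and 17.4% lower. The members' median was 0.03, against 0.24 over all regions. Groups did not overlap in 44 of the 63, and in 59.5% of all regions. At the cutoffs of the study (fold of 2 and adjusted p under 1e-05), 2 were higher and 3 lower, where 14.1% and 3.26% of all regions passed. Of the 22 regions called higher, 14 had a peak in fewer vehicle than DOX libraries, as did 56.8% of all regions called higher, and these entered the table mainly through the DOX libraries. In 3 of the 63 regions, and in 10.7% of all, a peak was called in all DOX libraries and no vehicle library. Regions with peaks in 1 group only entered the table through the group where they are high, so that their values are given below as a description, with no test.

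The 2 regions that rose most were at JAK1. The first (chr1:64834901-64835300), inside the gene near its 3-prime end, had 0.0744, 0.112 and 0.0740 without DOX and 0.613, 0.354 and 0.383 with DOX. The log2 fold change was 2.22, or 1.03 with limma-trend and 1.07 with loess offsets. The second (chr1:65079801-65080300), upstream of the gene and nearest to the start of AK4, had 0.109, 0.161 and 0.126 without DOX and 0.719, 0.676 and 0.538 with DOX (2.21, or 1.33 with limma-trend). Each of these regions had a peak in 3 DOX libraries and in no vehicle library, and both are low in coverage beside the JAK1 start site. Inside JAK1 there were also regions with more coverage that rose. The region that holds the JAK1 intronic element printed above (chr1:64917201-64918200) had 1.72, 1.66 and 1.62 without DOX and 3.21, 3.12 and 3.03 with DOX (0.90, SE 0.110, adjusted p = 1.38e-08). The region at chr1:64897701-64898900 had 1.61, 2.2 and 2.30 without DOX and 3.49, 3.72 and 3.93 with DOX (0.87, SE 0.109, adjusted p = 2.75e-08). JAK1 had 9 of its 15 regions called higher and 3 lower, the start site among the latter, where 37.1% and 17.4% of all DU-145 regions were.

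At the receptor genes, the largest change was a loss. The region downstream of IFNAR1 (chr21:33373301-33375000), toward the start of IFNGR2 and absent from the BT-549 table, had 1.34, 1.26 and 1.37 without DOX and 0.494, 0.555 and 0.566 with DOX. It fell by 1.29 on the log2 scale (SE 0.131, adjusted p = 2.81e-10), and its highest bin changed by -2.2. The region at the first annotated start of IFNAR2 (chr21:33203401-33205300), upstream of the canonical one and around the IFNAR2 upstream element, had 5.13, 5.28 and 5.59 without DOX and 3.87, 4.02 and 3.48 with DOX (-0.49, SE 0.0771, adjusted p = 1.60e-06). Both regions kept the 3 DOX libraries below the 3 vehicle libraries. A region downstream of IFNAR2 (chr21:33269001-33269600) changed by 0.78 (adjusted p = 0.00129) and one downstream of IFNAR1 (chr21:33360901-33361800) by 0.92 (adjusted p = 0.00138), and neither was called with loess offsets or with the GC trend removed.

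Around IRF1 in DU-145, 6 of 16 regions were called higher and 3 lower. Of all DU-145 regions, 37.1% were called higher and 17.4% lower, which are about the same shares. A region inside the annotated gene (chr5:132458301-132459000) had 0.152, 0.238 and 0.30 without DOX and 0.876, 0.869 and 0.609 with DOX. The log2 fold change was 1.76, or 1.05 with the GC trend removed. A peak was called there in 2 vehicle libraries, so that the rule of at least 3 replicates was met only with DOX peaks. No test is given for it. A region upstream (chr5:132510001-132510600), in the DU-145 table only, had 0.587, 0.585 and 0.787 without DOX and 0.208, 0.273 and 0.145 with DOX (-1.63, SE 0.280, adjusted p = 7.13e-06), or -2.36 with the GC trend removed. At IRF9, all 3 regions fell, and the others are the start sites of EMC9 (-0.43, adjusted p = 0.000169) and of PSME2 and RNF31 (-0.34, adjusted p = 0.00149). At STAT2, the start site of IL23A, a cytokine gene, had 0.113, 0.334 and 0.461 without DOX and 0.586, 0.728 and 0.645 with DOX. The log2 fold change was 1.11. Over the part from 56338901, a peak was called in 2 DU-145 vehicle libraries, so that the change is given as a description. A region upstream of STAT2 (chr12:56377001-56377600) with peaks in the DOX libraries only had a log2 fold change of 1.22.

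**Figure D2:**
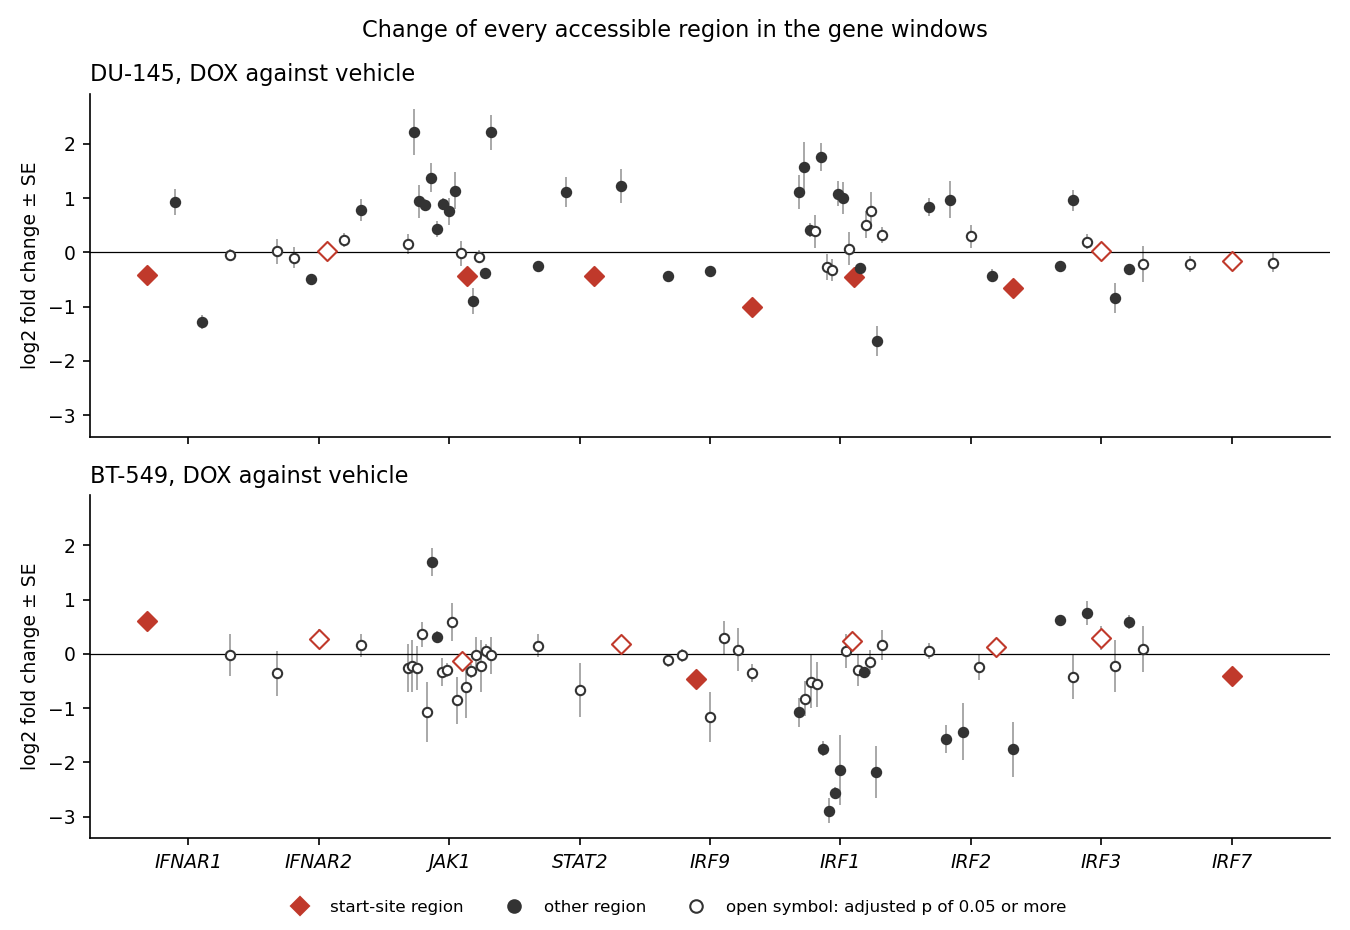
Log2 fold change with DOX, with its SE, of the 63 regions of DU-145 and the 62 regions of BT-549, ordered by position within each gene. Diamonds are the start-site regions, circles the others, and filled symbols are called. In DU-145 6 diamonds are filled and lie below 0, and in BT-549 the lowest points are those of IRF1, down to -2.89.

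In BT-549 cells, the start-site region of IFNAR1 rose with DOX, those of IRF7 and IRF9 fell, and 6 were not called. Of the 11298 canonical start-site regions of BT-549, 18.5% were called higher and 6.81% lower. The median of the 9 was 0.19, against 0.10 over all of them. IFNAR1 had 1.82, 2.14 and 2.34 without DOX and 3.43, 3.33 and 2.85 with DOX, so that every DOX library exceeded every vehicle library. The change was 0.61 (SE 0.156, adjusted p = 0.00392), between 0.47 and 0.73 under the 16 alternatives and called each time.

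The start-site region of IRF9 in BT-549 had 1.77, 1.64 and 1.94 without DOX and 1.06, 1.35 and 1.43 with DOX (-0.47, SE 0.145, adjusted p = 0.0154). That of IRF7, a run of bins of 6200 bp, had 1.5, 1.85 and 1.5 without DOX and 1.18, 1.34 and 1.17 with DOX (-0.40, SE 0.115, adjusted p = 0.00948). In both, no DOX library reached the lowest vehicle library. Neither call held under every alternative. With TMM factors the changes were -0.36 at IRF9 and -0.29 at IRF7 and not called, and in the highest bin they were -0.06 and 0.03. IRF9 also lost its call without vehicle replicate 1 (-0.48), vehicle replicate 3 (-0.40) or DOX replicate 1 (-0.35), and IRF7 without vehicle replicate 2 (-0.29).

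For the other start sites in BT-549, the changes were 0.29 at IRF3, 0.28 at IFNAR2, 0.23 at IRF1, 0.19 at STAT2, 0.12 at IRF2 and -0.14 at JAK1. That of IRF1 had 3.86, 3.66 and 3.37 without DOX and 4.56, 3.92 and 4.34 with DOX, without overlap, but with an adjusted p of 0.0825. It was called with TMM factors (0.34) and without DOX replicate 2 (0.29).

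The largest changes at any of the 9 genes in BT-549 were losses of accessibility in and beyond the 3-prime part of IRF1. A run of bins from chr5:132473801 to 132484700, of 10900 bp, was among the 6 longest of the 46298 regions of BT-549, whose median is 800 bp. It begins inside the canonical IRF1 transcript and continues past its 3-prime end, where its highest bin, in the 3-prime element printed above, lay. The region had 3.99, 4.25 and 4.02 without DOX and 0.873, 0.564 and 0.627 with DOX. The DOX level was far below the vehicle level in each library, with a change of -2.57 (SE 0.110, adjusted p = 7.07e-16), and 0.9% of all BT-549 regions fell as far or farther. The fold enrichment of its highest peak was 77.6, 80.8 and 60.1 in vehicle and 5.59, 5.28 and 4.14 in DOX libraries.

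Farther downstream, the region with the 2 ISRE matches shown above (chr5:132463601-132465000), which only the BT-549 table held, had 3.39, 3.67 and 3.55 without DOX and 0.648, 0.228 and 0.555 with DOX. The log2 fold change was -2.89, and -4.46 in its highest bin. A peak was called there in all vehicle libraries and in no DOX library, so that it entered the table through the group where it is high, and no test is given. The next region (chr5:132456701-132460600) had 2.2, 2.09 and 2.19 without DOX and 0.622, 0.609 and 0.685 with DOX (-1.75), with a peak in 3 vehicle libraries and 1 DOX library. Its vehicle peaks alone met the rule of at least 3 replicates, so that no test is given here either. Upstream of the start, a short region (chr5:132506001-132506400) had 1.99, 1.19 and 1.79 without DOX and 0.260, 0.724 and 0.167 with DOX (-2.18), again with peaks in the vehicle libraries only. All these groups were apart, while the start-site region between them was not called. In all, 7 of the 15 IRF1 regions of BT-549 were called lower, 4 of these with peaks in the vehicle libraries only, and 8 were not called. Over all BT-549 regions, 18.0% were called lower, and 34.9% had a peak in all vehicle libraries and no DOX library.

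**Figure D3:**
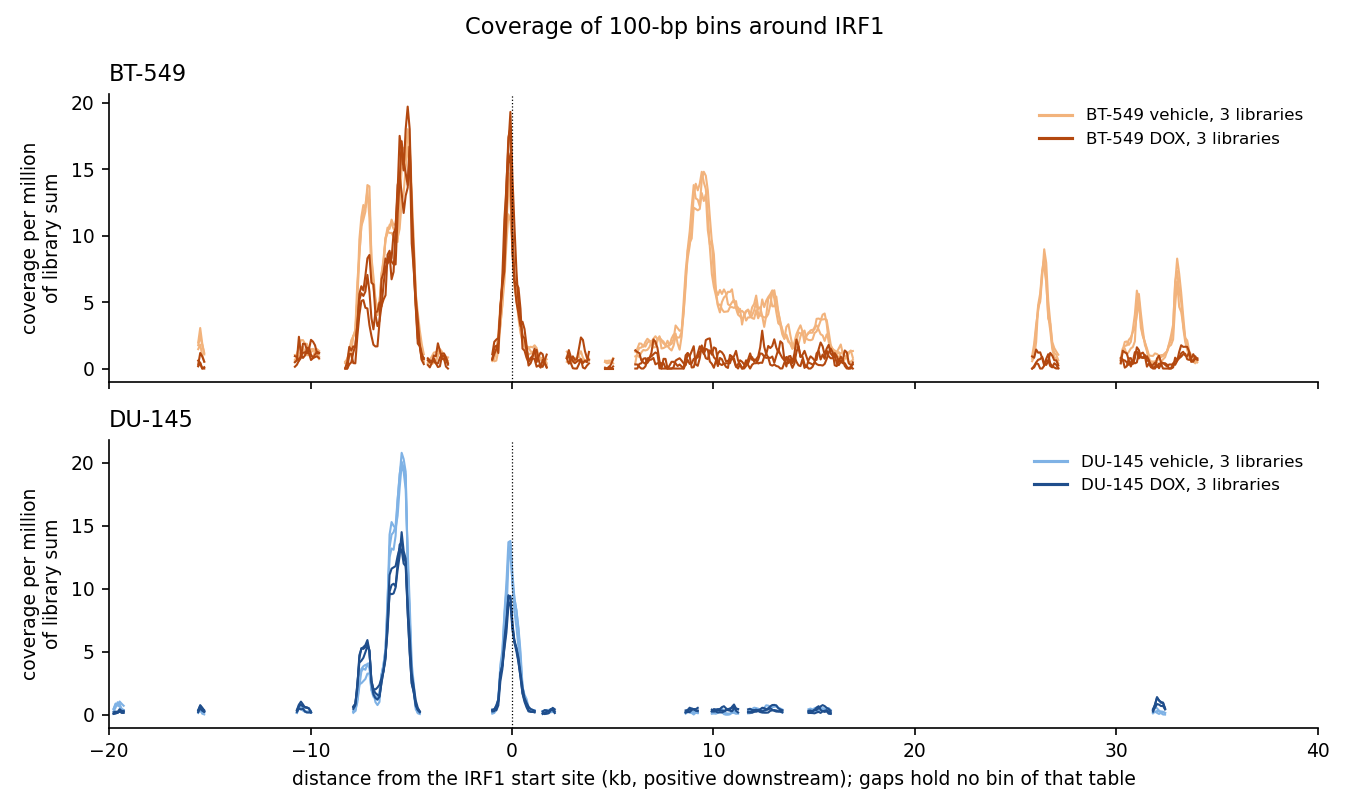
Coverage of the 100-bp bins around IRF1 per 1000000 of the library sum, against the distance from the IRF1 start in kb, with 1 line per library. In BT-549, the broad signal about 10 kb downstream of the start is present in the 3 vehicle libraries and close to the baseline in the 3 DOX libraries, and in DU-145 it is close to the baseline in all 6.

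Between 4 and 8 kb upstream of the IRF1 start lies an alternative start region with more than 1 summit, in which the parts moved differently. These bounds were chosen after the values were seen, and no test was made of them. The summit farther from the start (7.8 to 6.8 kb upstream) had 8.89, 9.35 and 9.45 in BT-549 vehicle and 3.37, 5.93 and 4.65 in BT-549 DOX cells. In DU-145 it had 2.79, 2.23 and 2.57 without DOX and 3.58, 3.95 and 3.89 with DOX. DOX values there were below the vehicle values in BT-549 and above them in DU-145. The nearer summit (6.2 to 5.0 kb upstream) had 12.9, 12.1 and 13.4 in BT-549 vehicle and 11.5, 12.1 and 13.6 in BT-549 DOX cells. In DU-145 it had 14.7, 15.1 and 15.1 without DOX and 10.3, 10.8 and 10.5 with DOX. As a whole, the region was called lower in both lines, with a change of -0.28 (SE 0.0630, adjusted p = 0.000277) in DU-145 and of -0.34 (SE 0.0840, adjusted p = 0.00275) in BT-549.

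At the other genes in BT-549, IRF2 lost accessibility in a region inside the gene held only by the BT-549 table (chr4:184400301-184401100). It had 2.84, 3.03 and 2.2 without DOX and 0.504, 1.04 and 1.17 with DOX. The log2 fold change was -1.57, given as a description with no test. Of the 12 regions called lower in BT-549, 4 had a peak in every library, a share that was not computed over all regions called lower. Whatever their call, 34.9% of all BT-549 regions had a peak in all vehicle libraries and no DOX library. JAK1 gained accessibility in a region inside the gene (chr1:64915501-64916200), with 1.02, 0.731 and 0.833 without DOX and 3.09, 3.31 and 2.06 with DOX (1.69, SE 0.261, adjusted p = 1.42e-05). Each of these pairs of groups was apart. At IRF3, 3 of 7 regions rose, namely an alternative IRF3 start (0.76, adjusted p = 0.00985), the start sites of RRAS and SCAF1 (0.62, adjusted p = 3.44e-05) and that of PRMT1, an arginine methyltransferase gene (0.59, adjusted p = 0.000614). The first was not called without vehicle replicate 3 (0.53), and the second not in its highest bin (0.28). Over all BT-549 regions, 12.2% were called higher. The region with the JAK1 intronic element had 6.25, 5.59 and 5.74 without DOX and 7.60, 7.02 and 7.15 with DOX (0.31, SE 0.108, adjusted p = 0.0307), a call lost with loess offsets (0.21) and without 1 library for 5 of the 6 libraries, with values of 0.27 to 0.36.

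In all, 6 of the 62 regions in BT-549 were called higher and 12 lower, and 44 were not called. Of all BT-549 regions, 12.2% were called higher and 18.0% lower. The members' median was -0.22, against -0.10 over all regions, and groups did not overlap in 31 of the 62, where they did not in 43.2% of all. At the study's cutoffs for this line (fold of 2 and adjusted p under 0.01), 1 was higher and 7 lower, where 3.75% and 8.62% of all regions passed. A peak was called in all vehicle libraries and no DOX library in 22 of the 62 regions and in 34.9% of all regions, which is about the same share. Of the 12 called lower, 6 were among these 22. The library sums of the BT-549 DOX cells were the lowest of the 4 groups, and the part of that depth in the losses was not tested. The call at the 10900-bp IRF1 region, which had a peak in every library, held under all 16 alternatives.

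When all bins of each gene and 20 kb on each side were summed, 7 of the 9 genes fell with DOX in DU-145 and JAK1 rose. Of all 18211 gene windows of DU-145, 5697 were called lower and 3759 higher, or 51.9% in either direction. The windows that fell most were those of IFNAR1 (-0.50, SE 0.0754, adjusted p = 1.35e-06) and IRF9 (-0.47, SE 0.0693, adjusted p = 1.09e-06). STAT2 followed with -0.32 (SE 0.0667, adjusted p = 0.000168). The windows of IRF2 (-0.22), IRF1 (-0.21), IFNAR2 (-0.21) and IRF3 (-0.20) changed less, that of IRF7 was not called (-0.18, adjusted p = 0.0768), and that of JAK1 changed by 0.14 (SE 0.0550, adjusted p = 0.0326). The sum for JAK1 thus had the opposite sign to its start site. With loess offsets 4 windows and without DOX replicate 3 only 5 were called. The IRF3 window turned to 0.27 with 5 kb on each side, and the IFNAR2 window to 0.02 in the gene body alone.

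In BT-549, 4 windows were called, where 32.7% of all 16980 windows were. The IRF1 window changed by -1.0 (SE 0.0663, adjusted p = 4.39e-14), and that of IRF7 fell by 0.40 (SE 0.114, adjusted p = 0.00677). The IRF3 window rose by 0.57 (SE 0.0866, adjusted p = 4.31e-06), and 2 neighboring start-site regions in it rose as well, as given above. The IFNAR1 window rose by 0.54 (SE 0.152, adjusted p = 0.00574). Without vehicle replicate 2 the IRF7 window (-0.29) and without vehicle replicate 1 the IFNAR1 window (0.45) were not called.

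**Figure D4:**
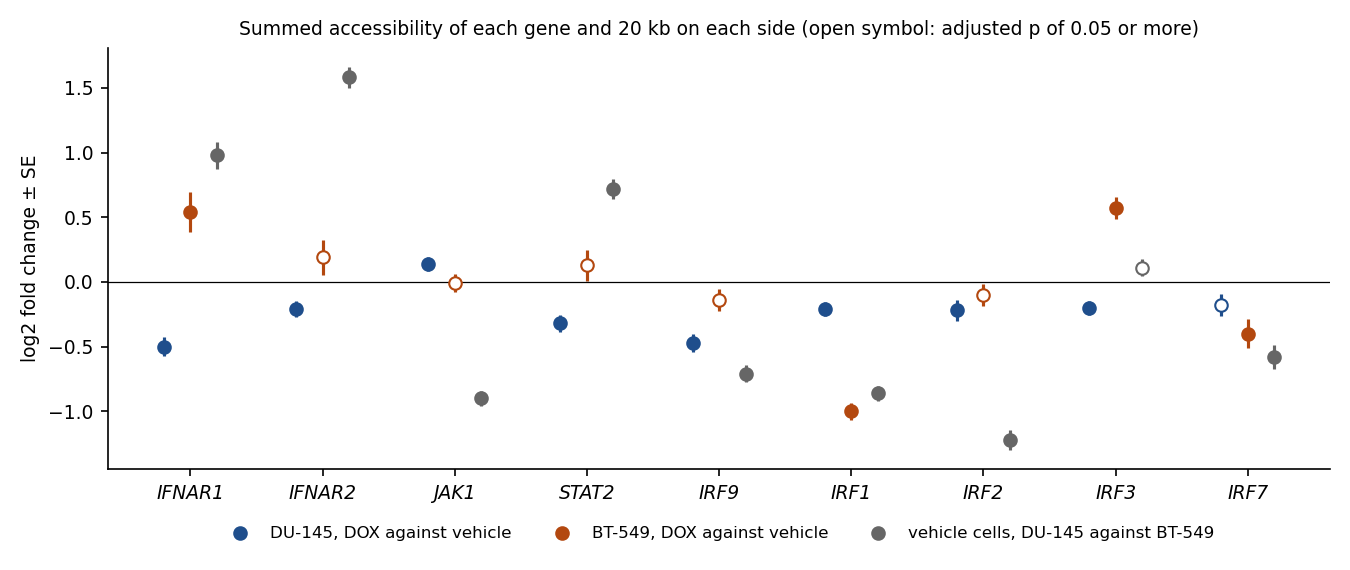
Log2 fold change, with its SE, of the summed coverage of each gene and 20 kb on each side in the 3 comparisons, with filled symbols for called values. With DOX in BT-549 the IRF1 window lies at -1.0, and in the vehicle cells the IFNAR2 window lies at 1.58, higher in DU-145.

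In the vehicle cells, the lines themselves differed at most of these regions. Of the 46 shared regions, 10 were called higher in DU-145 and 29 higher in BT-549, and 7 were not called. Over all shared regions, 27.0% were higher in DU-145 and 48.1% in BT-549. The members' median, as DU-145 minus BT-549, was -0.72, against -0.33 over all shared regions, and groups were apart in 36 of the 46, as they were in 76.1% of all shared regions. With TMM factors the median over all shared regions was -0.06, and the share of called regions higher in DU-145 was 49.0% rather than 35.9%. In this comparison scaled coverage is per 1000000 of the bins that both tables hold.

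The largest difference at a receptor gene was at the IFNAR2 upstream element (chr21:33204001-33204500 among the shared bins). It had 19.2, 19.3 and 20.5 in DU-145 and 0.711, 0.796 and 1.51 in BT-549, a difference of 4.35 (SE 0.156, adjusted p = 1.39e-22) that ranged from 4.10 to 5.17 under the 17 alternatives. Over these 500 bp, DU-145 vehicle cells also had a higher level per bin than over any of the 9 start-site regions. Over the whole, longer run of bins in the DU-145 table, the level given above was below that of the STAT2 start site. At the canonical start sites, those of IFNAR1 (1.11, SE 0.107, adjusted p = 2.73e-11), STAT2 (0.65, SE 0.0881, adjusted p = 5.38e-08) and IFNAR2 (0.48, SE 0.117, adjusted p = 0.000402) were higher in DU-145. IFNAR1 had 5.09, 5.74 and 5.76 in DU-145 and 2.23, 2.61 and 2.87 in BT-549.

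Higher in BT-549 were the start sites of IRF2 (-1.19, SE 0.115, adjusted p = 3.23e-11), JAK1 (-1.03, SE 0.0925, adjusted p = 4.67e-12), IRF3 (-0.94, SE 0.165, adjusted p = 4.92e-06) and IRF9 (-0.78, SE 0.117, adjusted p = 3.15e-07). IRF2 had 2.35, 2.04 and 2.71 in DU-145 and 5.26, 5.15 and 5.63 in BT-549. Those of IRF1 (0.14, adjusted p = 0.117) and IRF7 (-0.03, adjusted p = 0.813) were not called, and both were called higher in DU-145 with RLE factors, at 0.44 and 0.27. Of all 10705 shared start-site regions, 40.2% were higher in DU-145 and 33.8% in BT-549. Ordered by mean level, the start sites of DU-145 vehicle cells ran from STAT2 through IRF1, IFNAR1, IRF7, JAK1, IFNAR2, IRF9 and IRF2 to IRF3. The libraries of IRF1 and IFNAR1 overlapped, as did those of IRF7 and JAK1, of JAK1 and IFNAR2, and of IRF9 and IRF2. In BT-549 vehicle cells the order was STAT2, JAK1, IRF1, IRF2, IRF9, IRF7, IRF3, IFNAR1 and IFNAR2. Here STAT2 overlapped with JAK1, IRF1 with IRF2, IRF7 with IRF3, and IRF3 with both IFNAR1 and IFNAR2.

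The IRF1 and JAK1 loci carried the largest differences in favor of BT-549. In the 3-prime part of IRF1 (chr5:132481501-132482200), DU-145 had 0.257, 0.261 and 0.198 and BT-549 13.1, 13.4 and 12.6. The difference was -5.71 (SE 0.155, adjusted p = 1.73e-25). The adjoining shared parts of the BT-549 region differed by -4.71, -3.17 and -2.72. At IRF1, 10 of 12 shared regions were higher in BT-549, with the start site not called, where 48.1% of all shared regions were higher in BT-549. Inside JAK1, the region chr1:64933301-64933700 had 0.276, 0.323 and 0.242 in DU-145 and 3.18, 3.84 and 3.44 in BT-549 (-3.59, SE 0.246, adjusted p = 4.96e-15). The JAK1 intronic element lay in a region with 2.30, 2.23 and 2.19 in DU-145 and 9.49, 8.62 and 8.84 in BT-549 (-2.0, SE 0.104, adjusted p = 3.02e-18). Opposite in sign were 2 regions inside JAK1, at chr1:64898001-64898800 (0.92, adjusted p = 1.45e-06) and chr1:64915601-64916200 (0.76, adjusted p = 0.000794). The IRF2 region at chr4:184383501-184384700, downstream of the gene, differed by -2.70 (SE 0.142, adjusted p = 4.01e-18).

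By gene windows, 8 of the 9 genes differed between the lines, where 77.8% of 16432 windows did. IFNAR2 (1.58), IFNAR1 (0.98) and STAT2 (0.72) were higher in DU-145. IRF2 (-1.22), JAK1 (-0.90), IRF1 (-0.86), IRF9 (-0.71) and IRF7 (-0.58) were higher in BT-549. IRF3 was not called (0.11, adjusted p = 0.121), with -0.53 and a call when only 5 kb on each side was taken.

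The change with DOX differed between the lines in 21 of the 46 shared regions by the interaction of line and DOX, with 38.6% of all shared regions called. In 14 the value of DU-145 minus BT-549 was positive and in 7 negative. The median of this difference over all shared regions was 0.24 (0.03 with TMM factors) and over those at no start site 0.57. With TMM factors, 52.3% of the called differences were positive, against 70.7% without. At start sites, it was called for IFNAR1 (-0.86, SE 0.169, adjusted p = 6.93e-05), IRF1 (-0.55, SE 0.126, adjusted p = 0.000546) and STAT2 (-0.45, SE 0.146, adjusted p = 0.0128). IFNAR1 is the gene whose start site was called in opposite directions in the lines. For IRF9, the difference was -0.39 (adjusted p = 0.162), and it was called with TMM factors (-0.60).

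In the 3-prime part of IRF1 the interaction was largest. At chr5:132481501-132482200 it was 5.08, and at chr5:132479501-132480900 it was 4.26. The DU-145 level at both was low, between 0.139 and 0.244 in vehicle libraries of its own table and between 0.338 and 0.499 in DOX libraries. The signal thus rose from a low level in DU-145 (1.0 and 1.08) and fell from a high one in BT-549. A peak was called there in only 1 and 2 of the DU-145 vehicle libraries, respectively. The rises and the differences at both regions are thus given as a description. Of all DU-145 regions, 76.4% and 78.0% had the same change or a lower one, and the median away from start sites was 0.39. At chr1:64915601-64916200 inside JAK1 the difference was -1.13 (SE 0.285, adjusted p = 0.00151), with a rise in both lines.

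**Figure D5:**
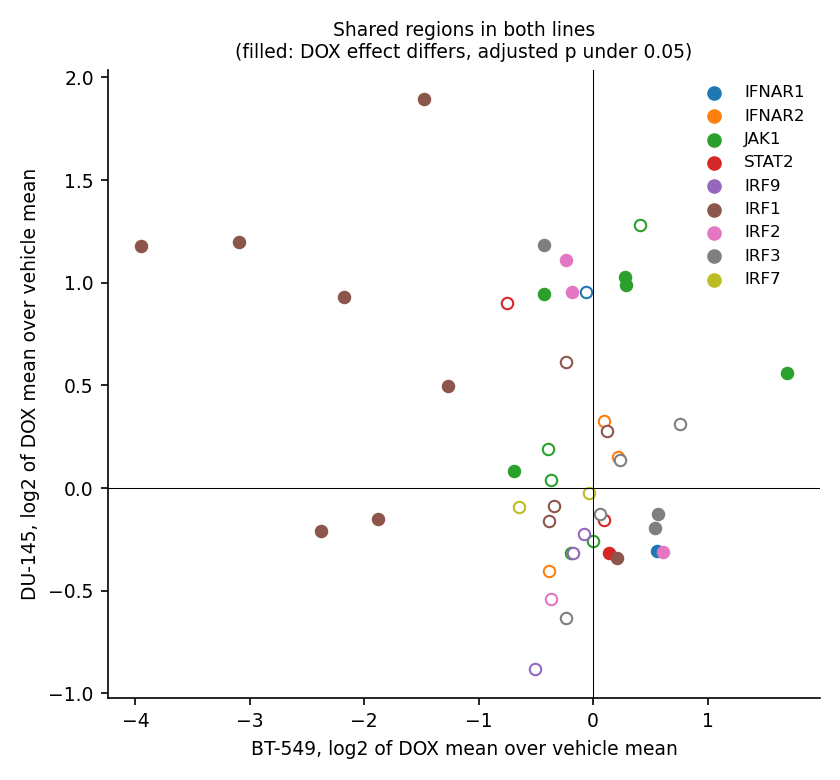
Change with DOX in BT-549 (x axis) and DU-145 (y axis) of the 46 shared regions, each as log2 of the ratio of the group means, with filled points where the interaction of line and DOX was called. The IRF1 points spread farthest to the left, and the 21 filled points include 8 of IRF1.

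Other genes of the pathway were examined at their start sites from a list of 23 further receptors, kinases, STATs, IRFs and negative regulators. In DU-145, 21 had such a region, of which 9 were called lower with DOX and 12 were not called, where 41.1% of all start-site regions were called lower. The median of -0.18 equaled that of all start sites, so that neither value sets the list apart. Among the STAT genes STAT3, STAT4 and STAT6 fell, and among the kinases JAK2 did, while TYK2, whose product binds IFNAR1, was not called. IRF5, IRF8, PTPN1, PTPN2 and PTPN11 make up the rest of those that fell, each by a fold under 2. The 4 further receptor genes IFNGR1, IFNGR2, IFNLR1 and IL10RB were not called.

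In BT-549, 18 genes of the list had a start-site region, of which 3 rose, 1 fell and 14 were not called, with a median of 0.16. Of all start-site regions there, 18.5% were called higher and 6.81% lower, with a median of 0.10. IFNGR1, a chain of the interferon gamma receptor, rose (0.46, adjusted p = 0.00276). PIAS1 (0.55, adjusted p = 0.0363) and PTPN2 (0.36, adjusted p = 0.0268), which restrain STAT signaling, also rose. USP18, an interferon-induced gene that dampens signaling at IFNAR2, fell (-0.99, SE 0.264, adjusted p = 0.00540). Between the vehicle cells, 12 of 18 were higher in DU-145, 2 were higher in BT-549 and the median was 0.58, against 40.2%, 33.8% and 0.06 over all shared start-site regions. Among those with a fold of at least 2 were STAT4 (2.63), IRF5 (1.89), USP18 (1.70), STAT3 (1.22), SOCS3 (1.21) and PTPN2 (1.02), all higher in DU-145.

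The ISRE core (GAAANNGAA), GAS (TTCNNNGAA) and AP-1 (TGACTCA or TGAGTCA) motifs were searched on both strands. In DU-145, 19 of the 63 regions at the 9 genes held an ISRE match and 19 a GAS match, and each was found in 22.9% of all regions. AP-1 matches were in 21 of 63, against 38.5% of all regions. In BT-549, 23 of 62 held an ISRE match (26.7% of all regions), 20 a GAS match (24.6%) and 14 an AP-1 match (27.1%). Regions differ in length, which these shares do not take into account. Among RefSeq promoters, 5 of the 9 genes were matched with 8 sequences, of which 2 held a GAS match, against 7.66% of 35116 promoters. These are the IRF1 and IRF9 promoters printed above. With DOX in DU-145, the start-site regions of all 5 matched genes fell, with or without a GAS match in the promoter. Over the whole start-site regions, which are longer than the promoters, GAS matches were in those of IRF1, IRF9, IRF2 and IFNAR1, which fell there. They were also in those of IRF7 and IFNAR2, which were not called. No GAS match was in those of STAT2 and JAK1, which fell, and of IRF3, which was not called. Not matched with a RefSeq promoter were IRF2, IRF3, IRF7 and IFNAR2.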

How the data were processed

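ATAC-seq was performed on 12 libraries of DU-145 and BT-549 cells with tet-MUC1shRNA. According to the study's methods, the authors aligned reads to GRCh38 with BWA, removed duplicates with Picard and called peaks in each replicate with MACS2 (2.2.7.1, q 0.05). Regions found in at least 3 replicates were merged and cut into 100-bp bins. The deposited bin tables hold the mean fragment coverage of each bin, not scaled, which was treated as estimated counts. Since fragments are longer than a bin, neighboring bins share fragments. The deposited peak lists give the fold enrichment (a ratio to the background) and the −log10 p- and q-values of each peak, per replicate.

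Here, runs of adjacent bins were summed, rounded and tested with edgeR 4.0.16 (quasi-likelihood, R 4.3.3) with the library sum as offset, a total of at least 10 and Benjamini-Hochberg adjustment over all features. The lines were compared, and the interaction of line and DOX was tested, in the bins that both tables hold. Every change is thus relative to the total coverage of a library. Alternatives were TMM and RLE factors, loess offsets (0.5 added to counts), removal of the GC trend, DESeq2 1.42.0, limma-trend 3.58.1 (log2 of CPM plus 1), other filters on low counts, the highest bin, other flanks and cutoffs, a replicate block and leaving out each library. Same-numbered libraries did not deviate together (correlations of -0.035 to 0.069).

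The members and gene lists were chosen with earlier results of these data known. Named were the start-site regions, per gene and line up to 2 regions higher and 2 lower by fold with a bin coverage of at least 10, shared regions called in the interaction and the highest region of 1 table only. The other regions and the genes of the pathway list with folds under 2 were named after their values were seen. The alternatives for single regions outside start sites and for single interaction values were chosen after seeing the data. RNA was not analysed here. The values of 2 marker or pathway genes are not reported here.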

Additional observations from a re-analysis of the deposited data

Results flagged for a closer look

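The effect of DOX differed between the lines, by the interaction of line and DOX in edgeR's quasi-likelihood test, at the following 21 of the 46 shared regions. Values are the log2 change in DU-145 minus that in BT-549. Comparisons in the 2 lines use separate control libraries.

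At start sites the difference was -0.86 for IFNAR1, -0.55 for IRF1 and -0.45 for STAT2. With loess offsets the last 2 were -0.29 and -0.26 and were not called. At IRF1, the regions in and beyond the 3-prime part of the gene gave 5.08 (from 132481501 on chromosome 5), 4.26 (from 132479501), 2.2 (from 132477301) and 1.68 (from 132474901). Farther downstream, it was 3.27 (from 132458301) and 1.76 (from 132426201), and upstream 3.13 (from 132506001). At each of these 7 IRF1 regions, the BT-549 DOX libraries had a mean below the BT-549 vehicle libraries. As given above, BT-549 peaks at the region from 132506001 were in the vehicle libraries only, and those around 132458301 mainly so. Both regions could thus enter the BT-549 table through the group where they are high. In DU-145 vehicle cells, a peak was called in 1 library at the regions from 132481501 and 132506001. At those from 132479501 and 132458301 it was called in 2. These regions could thus enter the DU-145 table only with the DOX libraries. The differences at all regions named in these caveats stay in the count but are given as a description.

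At IRF2, the differences were 1.13 downstream of the gene (from 184383501 on chromosome 4), 1.34 inside it (from 184417901) and -0.91 next to the start site (from 184472301). At IRF3 they were 1.69 inside the gene (from 49659501 on chromosome 19), -0.69 at the start sites of RRAS and SCAF1 and -0.73 at that of PRMT1. Inside JAK1 they were 1.33 (from 64920801 on chromosome 1), 0.83 (from 64934001), 0.75 (from 64917201), 0.68 (from 64898001) and -1.13 (from 64915601). Of these JAK1 values, those of the regions from 64917201, 64920801, 64898001 and 64934001 were 0.01, 0.19, -0.25 and 0.11 with the GC trend removed. The last lost its call under 11 of 23 alternatives, TMM factors (0.61) among them. Over the IRF2 region from 184417901 and the JAK1 region from 64920801, a peak was called in 1 DU-145 vehicle library. Both could thus enter the DU-145 table with the DOX libraries, and their differences are given as a description.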

How the results depend on the processing

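Single values were recomputed under 2484 alternatives in all, of which 2294 kept their direction and side of the threshold, 139 lost and 33 gained a call, and 18 reversed. In DU-145, the 22 regions called higher became 11 with loess offsets or with the GC trend removed, 14 with DESeq2, 13 in gene bodies only, 11 at a fold of at least 2 and 2 at the study's cutoffs. The 19 called lower became 12 with 5 kb flanks, 11 in gene bodies, 3 at a fold of 2 and 3 at the study's cutoffs. In BT-549, the 6 higher became 1 at a fold of 2 and 1 at the study's cutoffs, and the 12 lower became 7 with DESeq2, 7 in the highest bin and 7 at the study's cutoffs. Between the lines, the 10 higher in DU-145 became 5 in gene bodies and 3 at a fold of 2, and the 29 higher in BT-549 became 18 at that fold. The 21 differences of the DOX effect became 12. Of the gene windows, the 8 called in DU-145 became 4 with loess offsets, 5 with the GC trend removed and 0 at a fold of 2 or the study's cutoffs, where edgeR's adjusted p alone called 8, the 4 in BT-549 became 1 at either cutoff, and the 8 between the lines became 2 at a fold of 2. Without 1 library, counts ranged from 21 to 23 and 17 to 20 (DU-145 regions higher and lower), 4 to 7 and 9 to 13 (BT-549), 8 to 10 and 24 to 29 (between the lines), 21 to 24 (differences of effect), and 5 to 8, 3 to 4 and 8 to 9 (windows), with the lowest DU-145 window count without DOX replicate 3.

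Reversals with DOX in DU-145 were the IRF3 window (0.27 with 5 kb flanks, 0.30 in the gene body), the IFNAR2 window (0.02 in the gene body) and the IFNAR2 start site (-0.23 with RLE and DESeq2), and in BT-549 the IRF7 start site (0.03 in the highest bin). Between the lines they were the IRF3 window (-0.53 and -0.42 with 5 kb flanks and in the gene body), the IRF7 start site (0.27 with RLE and DESeq2), the IRF2 region next to the start (0.00 with RLE and DESeq2, 0.15 in the highest bin) and, with loess offsets, the IRF3 regions from 49659501 (0.14) and 49672301 (0.92), the STAT2 region from 56338901 (0.31) and the IFNAR1 region from 33361101 (0.14). The difference of the DOX effect between the lines at the JAK1 region from 64898001 was -0.25 with the GC trend removed. The cause of these changes was not tested.

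With the replicate block, 148 of 149 values kept their call, and the IRF3 region from 49659501 between the lines had -0.53 (adjusted p = 0.0533, edgeR). The low library sums of the BT-549 DOX cells limit the precision at low regions there.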
